A study of Sus scrofa with 5 samples.

Results

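The cells described here are the *POU5F1* and *DNMT3B* cells of porcine blastoids, blastocyst-like structures grown from porcine embryonic stem cells (pESCs). They were chosen by their transcript counts in 2 single-cell RNA sequencing (scRNA-seq) libraries, in which each unique molecular identifier (UMI) stands for 1 captured transcript. A barcode was taken as a cell if it held at least 11223 UMIs in library 1 or 9805 UMIs in library 2. A cell was a member if it held at least 5 UMIs of *POU5F1*, at least 4 of *DNMT3B*, fewer than 15 of *CRABP1* and fewer than 10 of *ISG15*. This gate held 341 of 7369 cells in library 1 (4.63%, exact 95% binomial interval 4.16% to 5.13%) and 646 of 8175 cells in library 2 (7.90%, 7.33% to 8.51%), 987 of 15544 cells in all. The mean share was 6.26% ± 2.32% (SD, n = 2 libraries), and the intervals of the libraries did not overlap. The intervals cover counting error only. The share depended on the gate, at a mean of 3.79% with a stricter one (at least 10 UMIs of *POU5F1* and 8 of *DNMT3B*) and 1.87% when each cell was first thinned to 9805 UMIs.

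The study derived pESCs from parthenogenetic blastocysts, which have no paternal genome, and kept them in a medium named 4FIXY on mouse feeder cells. Dissociated pESCs were first aggregated in 4FXY medium, which lacks the WNT inhibitor IWR1, and were then held in iBlastoid medium until day 6. Among other additions, iBlastoid medium contained activin A, BMP4, bFGF, LIF and IL-6, with the small molecules SB431542, CHIR99021 and XAV939. Signalling genes below were thus read in cells exposed to these additions. Blastoids with a cavity and both compartments were picked by hand and trypsinised for the 10x Genomics Chromium assay. Both libraries are labelled as the same condition, so no comparison between treatments exists and each comparison below sets groups of cells of 1 library against each other. Nothing in the labels says that the libraries came from separate cultures, so the spread between them may be technical.

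In the mammalian blastocyst, the inner cell mass gives rise to the epiblast, the pluripotent cells that form the embryo proper, and to the hypoblast, while the trophectoderm forms the outer wall. OCT4, the product of *POU5F1*, works together with SOX2 and NANOG to hold cells in the pluripotent state, and embryonic stem cells depend on it. *DNMT3B* encodes an enzyme that places new methyl groups on DNA, and it is abundant in the epiblast around implantation, when pluripotency passes from the naive to the formative and primed states. Activin, NODAL and FGF signals are known to act in the pluripotent epiblast, and the pESCs used here were kept with activin A, whereas BMP signals favour amnion and other extraembryonic fates.

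The libraries held 289452283 and 302211552 UMIs, with a median of 29728 and 27588 UMIs per cell, and 87.8% and 87.7% of all UMIs lay in cells. Of the cell barcodes, 9 occurred in both libraries. The gate works on raw UMIs, which a deeper cell reaches more easily. Members held a median of 47060 UMIs in library 1 and 42094 in library 2, against 29118 and 26690 in all other cells. Cells with at least 15 UMIs of *CRABP1*, also taken by raw UMIs, held 28026 and 26277. How much of the members' depth came from the gate was not tested. After each cell was thinned to 9805 UMIs, the median number of genes detected was 3751 and 3718 in members and 3558 and 3560 in the others. The median share of mitochondrial genes in the UMIs of a cell was 0.604% and 0.603% in members, against 0.604% and 0.583% in other cells. Cells with the highest Scrublet doublet scores made up 10.6% and 12.1% of the members but 5.66% and 6.07% of the other cells.

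The name of the cells was set beside 10 pluripotency genes that the gate did not use, among them *SOX2*, *NANOG*, *LIN28A*, *SALL4*, *UTF1*, *ZIC2*, *OTX2*, *ETV5* and *TDGF1*. These genes were picked with earlier results of these data known, so they describe the cells and do not test the name. At 9805 UMIs per cell, a member expressed a median of 4 of the 10 in both libraries, with 2 at the 10th and 6 at the 90th percentile. The median was 1 in all other cells. None of the 10 was detected in 1 member of each library (0.293% and 0.155%), against 23.3% and 19.3% of the other cells. *SOX2* was detected in 61.3% and 61.5% of members at this depth, in 16.5% and 19.9% of other cells and in 3.74% and 2.74% of cells with at least 20 UMIs of the collagen gene *COL3A1*, which should lack it. Without thinning, *SOX2* had a UMI in 309 members of library 1 (90.6%) and 590 members of library 2 (91.3%). *UTF1*, a chromatin protein of undifferentiated cells, was detected in 81.2% and 83.4% of members and 19.4% and 22.0% of other cells after thinning, and *ZIC2* in 61.0% and 62.4% against 11.9% and 15.6%. The *POU5F1* cells low in *DNMT3B*, described below, shared much of this. After thinning, *UTF1* was detected in 69.2% and 68.2% of them, *SOX2* in 32.8% and 31.5% and *ZIC2* in 25.1% and 25.6%. *LIN28A* differed little, at 20.8% and 17.2% of members and 14.7% of other cells in both libraries. In the *POU5F1* cells low in *DNMT3B* it was detected in 23.8% and 17.5%. *NANOG* was detected in 4.99% and 6.97% of members and 0.285% and 0.491% of other cells. Members also expressed a median of 5 of 14 trophectoderm genes, against 8 and 7 in other cells. As a set, the 10 markers thus go with the name for the gated cells as a whole, although single markers and individual members differed.

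The gate genes describe how the cells were selected and are given without a test. *POU5F1* lies on chromosome 7 of susScr11 at chr7:23564654-23570691 and *DNMT3B* on chromosome 17 at chr17:36345715-36386076. Members held 5 to 73 UMIs of *POU5F1* in library 1 (median 16) and 5 to 97 in library 2 (median 17). For *DNMT3B* they held 4 to 127 (median 11) and 4 to 97 (median 13). Both genes thus spread widely above their thresholds. When UMIs were summed over cells and scaled to counts per 1000000 UMIs (CPM), *POU5F1* stood at 383 and 450 CPM in members and 39.2 and 51.0 CPM in other cells, and *DNMT3B* at 318 and 400 CPM against 16.8 and 21.3 CPM. Empty droplets, barcodes with 10 to 100 UMIs, held 54.9 and 97.3 CPM of *POU5F1*, so free RNA carried this transcript in both libraries.

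The *POU5F1* and *DNMT3B* thresholds were passed by 381 and 686 cells. Of these, 16 and 19 were removed for *CRABP1* and 32 and 22 for *ISG15*. Both numbers include the 8 and 1 cells that failed both limits. Cells just inside the *POU5F1* threshold, at exactly 5 UMIs, numbered 17 and 28 and held 80.0 and 71.1 CPM of *SOX2*. Just outside, at 4 UMIs, 14 and 30 cells held 88.1 and 97.5 CPM. At the *DNMT3B* threshold, 32 and 56 cells with 4 UMIs held 68.5 and 64.8 CPM of *SOX2*, and 46 and 67 cells with 3 UMIs held 56.6 and 61.8 CPM. At the same edge *GATA3* held 175 and 139 CPM inside and 178 and 141 CPM outside, and *ZIC2* held 104 and 69.1 against 53.5 and 76.1 CPM, in opposite order in the 2 libraries. *NODAL* held 2.77 and 2.57 against 0.388 and 0.359 CPM, levels that rest on few UMIs. When the same gate was applied after thinning every cell to 9805 UMIs, 82 cells of library 1 and 214 of library 2 passed, and 80 and 211 of these were members.

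**Figure D1:**
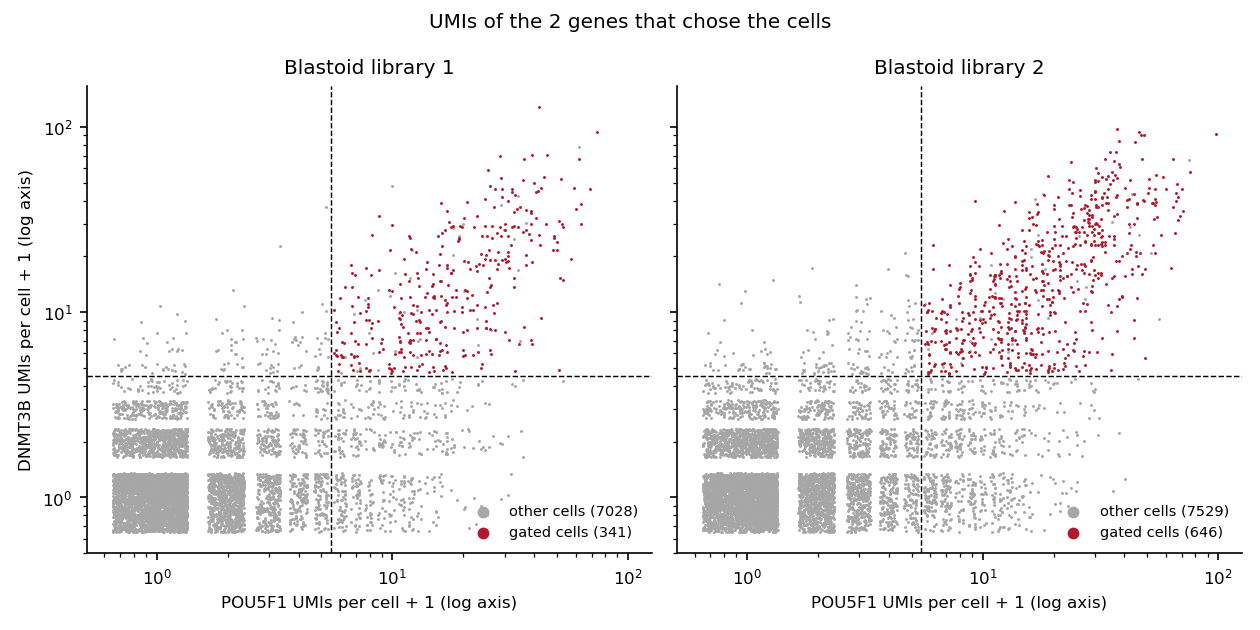
UMIs of *POU5F1* (x axis) and of *DNMT3B* (y axis) per cell in library 1 (left) and library 2 (right), on log axes of the count plus 1, with 1 point per cell, shifted slightly at random so that equal counts do not overlap. The gated cells, 341 and 646 in number, are red and fill the corner above the dashed thresholds of 5 and 4 UMIs without a gap to the grey cells around them, and grey points in that corner are cells removed by *CRABP1* or *ISG15*.

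UMIs were summed over the members and over all other cells of each library, and these 4 sums entered the quasi-likelihood test of edgeR for all genes but the 4 of the gate. An adjusted p here sets the difference between groups against the spread between the 2 libraries, with the sums of 1 library not paired. Since the gate and the genes tested were read from the same cells, it is not independent evidence that such a population exists. Of 20159 genes tested, 4765 (23.6%) were higher and 4570 (22.7%) lower in members at an adjusted p below 0.05, and the median log2 fold change of all genes was -0.01. Differences of more than 1 on the log2 scale were found for 1330 genes called higher and 1418 called lower.

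The gene with the highest fold change among those with at least 50 CPM in both libraries of the higher group was *NTM*, which encodes neurotrimin, a cell adhesion protein of the immunoglobulin superfamily best known from neurons. It stood at 169 CPM in members of library 1 and 211 in library 2, against 8.11 and 11.3 CPM in other cells. Its means of 190 ± 30.1 and 9.71 ± 2.26 CPM (SD, n = 2) differed 19.6-fold, with a log2 fold change of 4.24 ± 0.19 (SE; adjusted p = 6.25e-06, edgeR). *ERAS*, a RAS family GTPase first described in mouse embryonic stem cells, came next. It held 431 CPM in members of both libraries and 30.3 and 45.2 CPM in other cells (log2 fold change 3.45 ± 0.18, adjusted p = 1.14e-05). Empty droplets held 61.0 and 116 CPM of *ERAS*, above the level in the other cells, so part of the reading in those cells may be free RNA, which was not tested.

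Further genes of this group encode proteins of several kinds. *CAV1*, the main protein of caveolae, held 50.8 and 51.8 CPM in members and 6.21 and 6.35 CPM elsewhere (log2 fold change 2.97 ± 0.07). *CDKL2*, a protein kinase, held 79.1 and 82.7 against 9.52 and 10.5 CPM (2.96 ± 0.08), and *USP44*, a deubiquitinating enzyme, 76.1 and 84.0 against 11.1 and 13.8 CPM (2.63 ± 0.12). Follistatin (*FST*), a secreted protein that binds and neutralises activin, stood at 154 and 182 CPM against 20.5 and 24.6 CPM (2.84 ± 0.12). *SOX21*, a SOXB2 factor, held 100 and 106 against 13.5 and 19.9 CPM (2.57 ± 0.17). The homeobox gene *HESX1*, known from the early forebrain and from pluripotent cells, held 138 and 127 against 19.5 and 32.7 CPM (2.28 ± 0.22). *REPS2*, an adaptor in endocytosis of growth factor receptors, and *TENM1*, a teneurin of the cell surface, complete the 12 named genes together with *UTF1* and *ZIC2*. *REPS2* held 105 CPM in members of both libraries, 5.25 times the mean of the other cells (2.33 ± 0.07), and *TENM1* 118 and 121 against 21.5 and 28.4 CPM. The adjusted p of these 12 genes was at most 0.000152.

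Among genes lower in members under the same limit of 50 CPM, *TP63*, a transcription factor of stratified epithelia and trophoblast, had the largest difference, with 10.4 and 13.3 CPM in members and 89.1 and 74.1 CPM in other cells (log2 fold change -2.82 ± 0.13, adjusted p = 7.11e-06, edgeR). The chemokine gene *CXCL14* fell from 6568 and 6052 CPM in other cells to 1075 and 1191 CPM in members (-2.53 ± 0.08), while empty droplets held 7000 and 6270 CPM of it. *CXCL14* was thus abundant in free RNA, and what share of the members' reading came from it was not tested. The homeobox gene *MEIS1* held 42.6 and 41.2 against 211 and 196 CPM (-2.34 ± 0.06), and *PDE3A*, a cyclic nucleotide phosphodiesterase, 47.4 and 43.7 against 285 and 240 CPM (-2.59 ± 0.08). The other names are *MYL7* (atrial myosin light chain), *RORB* (an orphan nuclear receptor), *ZFPM2* (a GATA cofactor) and *PLA2G4A* (a phospholipase), with log2 fold changes between -2.44 and -2.32. *MYL7* and *ZFPM2* were higher in library 1 than in library 2 in both groups of cells.

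**Figure D2:**
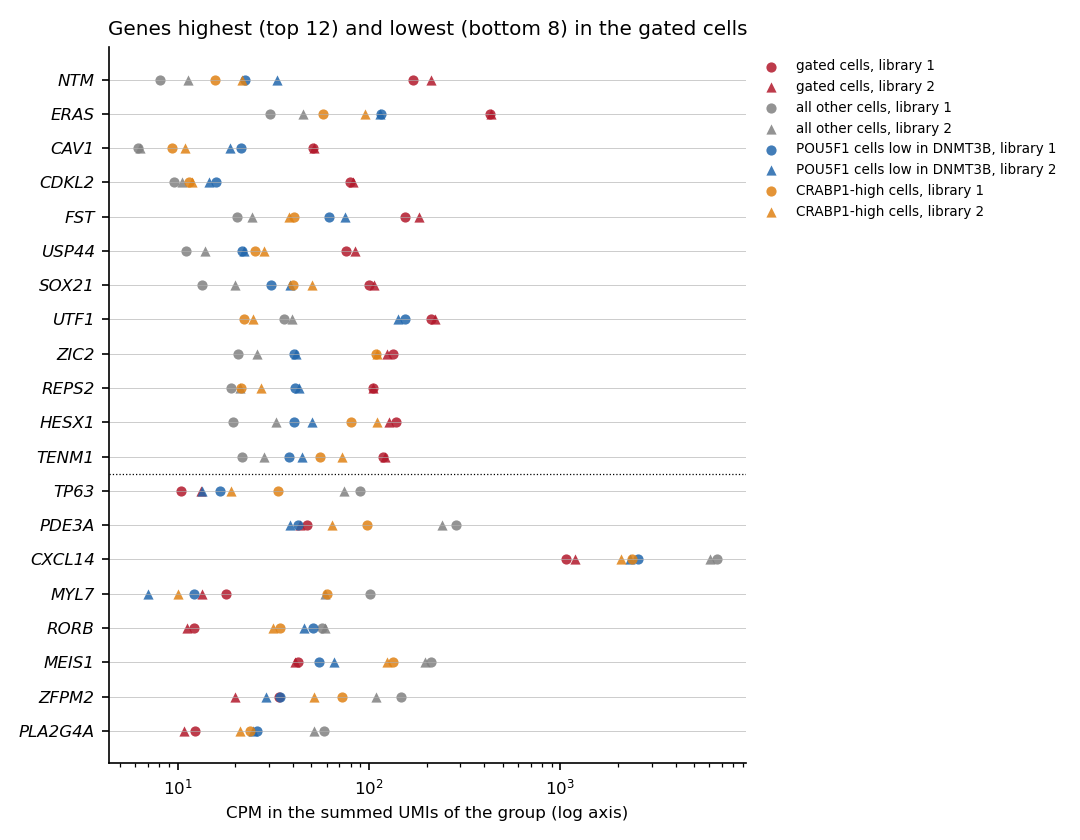
Level in CPM (log axis) of the 12 genes with the highest and the 8 with the lowest log2 fold change in members against all other cells, with 1 point per library (circles library 1, triangles library 2) and colours for the gated cells, all other cells and the *POU5F1* cells low in *DNMT3B* and *CRABP1*-high cells within them. The genes run from *NTM* (169 and 211 against 8.11 and 11.3 CPM) to *PLA2G4A* (12.4 and 10.7 against 58.3 and 51.7 CPM), and since they were chosen by fold change, the gap between the gated and the other cells was set by the choice.

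Of 13 tested genes of the general pluripotency list, 11 were higher in members and none lower, with a median log2 fold change of 0.87, beside 23.6% of all genes called higher and a median of -0.01 over all genes. With doublets removed, 11 of 12 tested were higher and none lower. *SOX2*, a single-exon gene at chr13:119668476-119669435 whose product pairs with OCT4 on DNA, held 108 and 113 CPM in members and 22.7 and 28.8 CPM in other cells (log2 fold change 2.04 ± 0.12, adjusted p = 1.6e-05, edgeR). *UTF1* held 210 and 222 against 35.9 and 39.6 CPM (2.46 ± 0.08). *PRDM14*, a repressor that guards pluripotency and germ cell fate, held 27.3 and 23.7 against 2.22 and 1.82 CPM (3.59 ± 0.12). *SALL4*, a zinc finger factor of stem cells, was present everywhere, at 211 and 207 CPM in members and 106 and 113 CPM in other cells (0.87). The RNA-binding proteins encoded by *LIN28A* and *LIN28B* differed least among the genes called, with log2 fold changes of 0.23 and 0.26.

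Some pluripotency genes were scarce and are named after their values were seen. *NANOG* held 5.54 and 7.22 CPM in members and 0.356 and 0.506 CPM in other cells, and 273 of 341 and 504 of 646 members had no UMI of it. The annotation places 2 loci under the symbol *NANOG*, so its level is uncertain. *TDGF1*, the NODAL coreceptor, held a mean of 10.6 ± 2.03 CPM in members against 0.824 ± 0.308 CPM (SD, n = 2; log2 fold change 3.64). Both genes were thus far more frequent in members, yet most members had no count. Members held 99 of the 183 *NANOG* UMIs of all cells in library 1 and 215 of 334 in library 2. *DPPA2* had no UMI in any of the 341 members of library 1 and none in 644 of 646 members of library 2, and it was not tested. *DPPA4* at 0.112 and 0.168 CPM and *L1TD1* at 1.18 and 2.01 CPM did not pass the test.

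Of 15 tested genes linked to formative and primed epiblast, 12 were higher and 1 was lower, with a median log2 fold change of 1.66. The zinc finger genes *ZIC2* and *ZIC5* were both higher. *ZIC2* held 133 and 124 CPM in members and 20.6 and 26.1 CPM in other cells (2.40 ± 0.12), and *ZIC5* held 34.6 and 33.5 against 4.31 and 6.14 CPM (2.64). *POU3F1*, a POU factor of the formative epiblast, held 28.4 and 28.3 against 5.02 and 6.60 CPM (2.23), and *OTX2*, which directs the exit from naive pluripotency, 77.6 and 82.6 against 26.9 and 30.5 CPM (1.43). *FGF5*, a ligand gene often used to mark primed cells, was the gene called lower, and it was near 0 in members at 0.224 and 0.503 CPM against 0.961 and 0.727 CPM. Of 11 tested naive pluripotency genes, 3 were higher and 3 lower, near the 23.6% and 22.7% of all genes, with a median of -0.04. *TBX3* held 10.4 and 9.77 against 25.3 and 23.2 CPM (-1.33), whereas *DPPA3* held 5.20 and 7.18 against 1.64 and 2.85 CPM (1.43). *KLF17* was close to 0 in members, at 0 and 0.168 CPM. In the formative and primed list, 2 of the 15 genes did not pass the test.

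**Figure D3:**
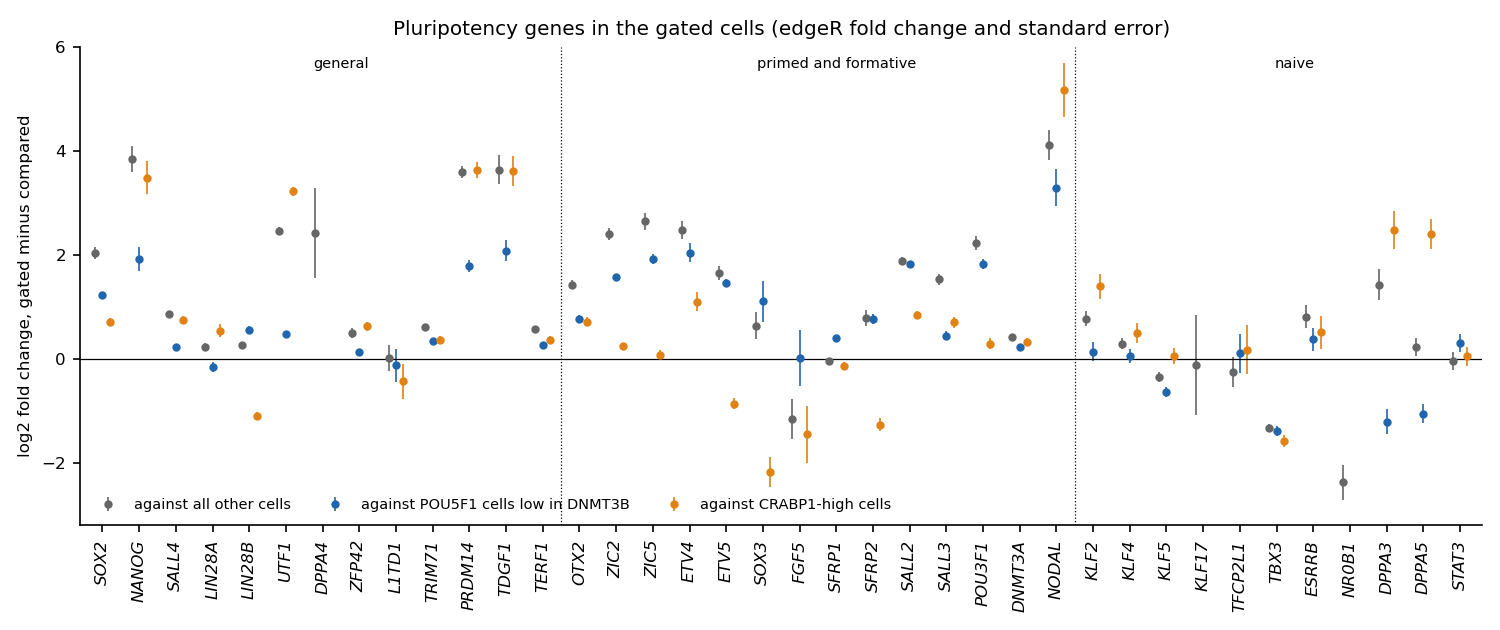
Log2 fold change (y axis, bars are SE) of tested genes of the general, the primed and formative and the naive pluripotency lists in the gated cells, against all other cells (grey), *POU5F1* cells low in *DNMT3B* (blue) and *CRABP1*-high cells (orange). Against all other cells the first 2 lists lie mostly above 0 (11 of 13 and 12 of 15 called higher, with 1 of the 15 not drawn), and the naive list lies on both sides (3 higher and 3 lower of 11).

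In the DNA methylation list, from which *DNMT3B* itself was left out, 6 of 10 genes were higher and 2 lower, beside 23.6% and 22.7% of all genes, with a median log2 fold change of 0.29. *HELLS*, a chromatin remodeller needed for methylation of repeats, held 116 and 120 CPM in members and 69.6 and 67.9 CPM elsewhere (0.72). The TET genes encode enzymes that oxidise methylcytosine. *TET1*, the TET gene of pluripotent cells, was higher at 133 and 122 against 93.2 and 89.1 CPM (0.43). *TET2* was lower at 32.7 and 30.7 against 48.7 and 48.9 CPM (-0.68), as was *TET3* at 29.5 and 28.0 against 43.0 and 41.1 CPM (-0.61). *DNMT3A*, the other de novo enzyme, held 55.5 and 52.7 against 40.2 and 37.3 CPM (0.42).

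Of 16 tested genes of NODAL and activin signalling, 6 were higher and 4 lower (median 0.13), beside 23.6% and 22.7% of all genes, so the lower calls were about as frequent as over all genes. The higher ones were the ligand genes *NODAL* and *GDF3*, the coreceptor gene *TDGF1*, the receptor gene *ACVR1B*, the cofactor gene *FOXH1* and the inhibitor gene *FST*. *NODAL* itself held 2.74 and 3.15 CPM in members and 0.131 and 0.196 CPM in other cells (log2 fold change 4.12 ± 0.29), and 49 of its 80 UMIs in cells of library 1 and 94 of 140 in library 2 came from members. It had no UMI in 309 and 588 members. Of the receptors and SMADs with enough counts, *ACVR2B* held 46.5 and 50.7 against 41.7 and 44.9 CPM and passed the test only with the library as a block (0.11), *SMAD4* held 111 and 107 against 110 and 108 CPM and did not pass it, and *SMAD2* was slightly lower at 92.0 and 97.2 against 107 and 110 CPM (-0.26). *LEFTY2*, a feedback inhibitor of NODAL, had too few counts to test.

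Of 16 FGF signalling genes 10 were higher and 5 lower, beside 23.6% and 22.7% of all genes, with a median of 0.62. The receptor gene *FGFR1* held 172 and 163 CPM in members and 82.4 and 78.4 CPM in other cells (1.00). *FGFR4*, named after its values were seen, held 5.04 and 7.42 against 0.559 and 0.697 CPM (3.27). The phosphatase gene *DUSP6*, which ERK activity is known to induce, was higher at means of 26.9 ± 0.576 against 12.4 ± 0.651 CPM (SD, n = 2; 1.06), as was the ETS factor gene *ETV5* at 50.2 and 53.3 against 13.6 and 17.9 CPM (1.66). *IL17RD*, an FGF antagonist that is itself induced by FGF signals, was lower at 23.5 and 24.2 against 51.1 and 52.1 CPM (-1.17). The ligand genes *FGF2*, *FGF5* and *FGF8* were among the 5 called lower.

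Of 22 WNT genes 9 were higher and 8 lower, beside 23.6% and 22.7% of all genes (median -0.08). The receptor gene *FZD5* held 189 and 184 CPM in members against 61.7 and 86.2 CPM (1.27), and the TCF factor gene *TCF7L2* 235 and 216 against 129 and 132 CPM (0.73). The ligand gene *WNT6*, also an amnion marker, was lower at 29.9 and 24.6 against 112 and 102 CPM (-2.04). BMP genes were lower in 10 of 17 cases and higher in 2, with a median of -0.31. *BMPR1B*, a BMP receptor gene, held 71.1 and 71.5 against 145 and 139 CPM (-1.05), and *MSX2*, a homeobox target of BMP signals, 47.8 and 43.8 against 96.0 and 84.5 CPM (-1.04). The 2 genes called higher, *ID1* at 514 and 502 against 328 and 309 CPM (0.62) and *ID4* at 117 and 114 against 75.6 and 76.9 CPM (0.54), are themselves known BMP targets, so the list did not move as a block. In the LIF and IL6 list 1 of 7 genes was higher and 2 were lower, not far from the shares over all genes, and *PIM1*, a kinase gene induced by STAT3, was the higher one at 21.6 and 22.9 against 11.3 and 10.7 CPM (0.96).

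Genes of the trophectoderm were mostly lower in members. Of 14 tested trophectoderm genes, 12 were lower and 1 higher (median -0.79), also with doublets removed, beside 22.7% of all genes lower and 23.6% higher. The summed level of the list was 6935 and 6337 CPM in members against 11416 and 11123 CPM. *TFAP2A*, an AP-2 factor of trophectoderm and amnion, held 122 and 113 against 300 and 283 CPM (-1.37), and *KRT7*, a keratin of simple epithelia, 97.2 and 94.6 against 326 and 335 CPM (-1.84). *GATA3*, the factor used to mark trophectoderm, held 77.6 and 63.7 CPM in members against 136 and 132 CPM (-0.99). After thinning it was detected in 35.5% and 33.1% of members, 62.7% and 61.5% of other cells and 28.1% and 24.7% of the *COL3A1* cells. The members' share thus lay below that of the other cells and above that of the *COL3A1* cells in both libraries. *TFAP2C*, shared by trophectoderm and germ cells, was the gene called higher, at 52.0 and 45.2 against 39.9 and 39.5 CPM (0.23). It held 26.1 and 27.9 CPM in members with no *GATA3* UMI and 73.1 and 71.1 CPM in those with at least 5, of which 25.0% and 31.2% had high doublet scores, and the part of doublets was not tested. *CDX2* was near 0 in all cells, at 0.951 and 0.772 CPM in members and 0.864 and 0.969 CPM in the others. When members with at least 5 UMIs of *GATA3*, *GATA6* or *COL3A1* were left out, which kept 239 and 492, 13 of the 14 genes were lower and the median was -1.72. The other cells were not filtered in this way and *GATA3* is on the list, so part of this shift was set by the choice of members.

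All 9 amnion genes were lower in members (median -2.04), among them *GABRP*, a GABA receptor subunit, at 107 and 90.7 against 222 and 206 CPM (-1.18). Of 12 cardiac and mesenchymal genes 11 were lower and none higher (median -2.31), and the remaining one, the cardiac actin gene *ACTC1*, held 49.5 and 48.9 CPM against 106 and 44.6 CPM. It was thus lower in members in library 1 and slightly higher in library 2. Its log2 fold change of -0.67 did not pass the test, passed it with the library as a block (-0.51) and was 0.13 without library 1. In the hypoblast list 7 of 16 genes were lower and 2 higher, beside 22.7% and 23.6% of all genes (median -0.37). *APOA1*, an apolipoprotein of endoderm, held 65.2 and 79.6 against 203 and 217 CPM (-1.58), *GATA6* 13.3 and 9.33 against 23.7 and 15.8 CPM (-0.89), and *SOX17* was below 1 CPM in both groups. *APOE* was slightly higher at 859 and 874 against 651 and 708 CPM (0.29), with 934 and 1039 CPM in empty droplets, and with the gate at equal depth it did not pass the test (0.21).

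Neural genes were lower in 10 of 14 cases, beside 22.7% of all genes (median -1.30), such as *MAP2*, a microtubule protein of neurons, at 149 and 145 against 339 and 363 CPM (-1.31). The 2 neural-list genes that were higher, no larger a share than the 23.6% of all genes, *HESX1* and *SOX11*, are also known from the epiblast, and *SOX11* held 223 and 219 against 79.2 and 84.1 CPM (1.38). Of 7 neural crest and surface ectoderm genes 5 were lower and 1, the epiblast and crest factor gene *FOXD3*, was higher. Interferon response genes were lower in 9 of 11 cases and higher in none (median -1.47). Since *ISG15* is such a gene and served in the gate, this list was not independent of the selection. *IFI6*, an interferon-induced gene, held 44.9 and 41.9 against 99.0 and 97.9 CPM (-1.24).

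Primitive streak genes gave 4 higher and 2 lower of 8 tested (median 0.53), beside 23.6% and 22.7% of all genes. *EOMES*, a T-box factor of the streak and of trophoblast, held 9.46 and 10.1 CPM in members against 2.48 and 1.83 CPM (2.13), and *GSC*, the goosecoid homeobox gene, 3.02 and 2.65 against 0.423 and 0.570 CPM (2.44). Both are named after their values were seen. *EOMES* had a UMI in 73 members of library 1 and 142 of library 2, while the brachyury gene *T* was near 0 at 0.056 and 0.0336 CPM. In the germ cell list 5 of 10 genes were higher and 3 lower, beside the same shares over all genes (median 0.03). *DND1*, an RNA-binding protein of germ cells, held 44.4 and 42.2 against 11.7 and 12.2 CPM (1.79), and *ARID5B*, a chromatin factor, 24.8 and 24.1 against 73.7 and 72.6 CPM (-1.64). *PRDM1*, a defining germ cell repressor, held 27.1 and 27.3 against 28.0 and 30.8 CPM and did not pass the test.

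**Figure D4:**
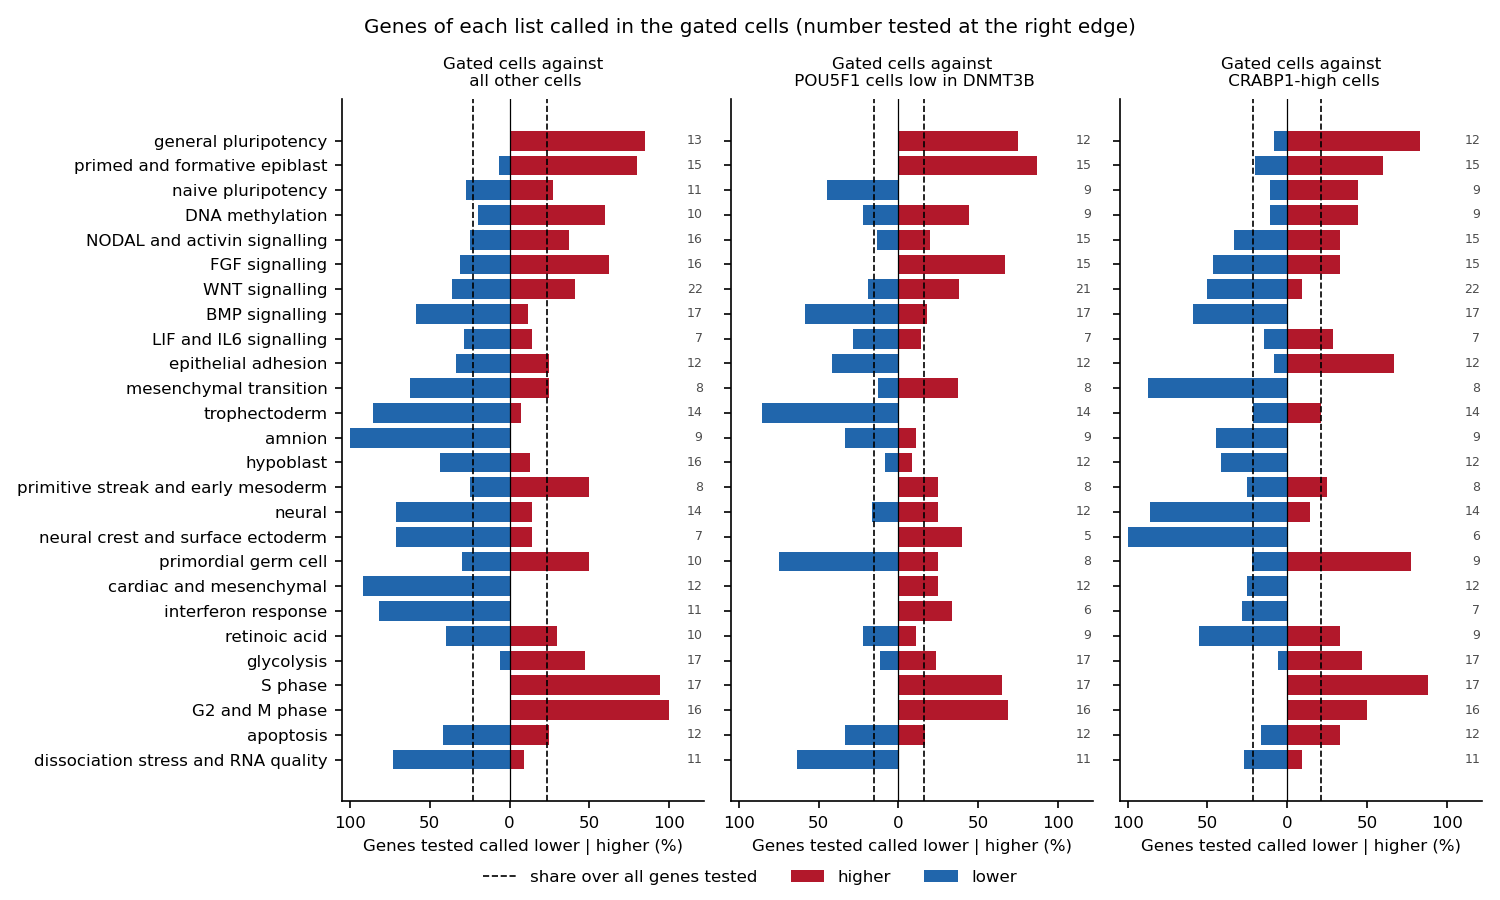
Share of each list's tested genes (their number at the right edge) called higher (red, to the right) or lower (blue, to the left) in the gated cells in the 3 comparisons, in percent (adjusted p below 0.05, edgeR), with the shares over all genes as dashed lines. Against all other cells, where 23.6% of all genes were higher and 22.7% lower, S phase (16 of 17) and general pluripotency (11 of 13) reach far to the right and amnion (9 of 9) and cardiac and mesenchymal genes (11 of 12) far to the left.

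Epithelial adhesion genes did not move together, with 3 of 12 higher and 4 lower, beside 23.6% and 22.7% of all genes (median 0.03, which turned negative when cells of matched depth were compared). The claudin genes differed among themselves: *CLDN6*, a claudin of pluripotent and early embryonic epithelium, held 713 and 742 CPM in members against 550 and 582 CPM (0.30), while *CLDN3* held 122 and 116 against 228 and 243 CPM (-1.04) and *CLDN4* 252 and 234 against 384 and 400 CPM (-0.75). E-cadherin (*CDH1*) held 208 and 188 against 163 and 165 CPM (0.21) and N-cadherin (*CDH2*) 149 and 137 against 69.7 and 75.1 CPM (0.92), but with the gate applied at equal depth the difference in *CDH2* was 0.13 and did not pass the test. Of 8 mesenchymal transition genes 2 were higher and 5 lower (median -0.84). Fibronectin (*FN1*) was lower at 191 and 170 against 449 and 426 CPM (-1.34). The repressor gene *ZEB2* was higher at 26.9 and 21.8 against 19.5 and 18.8 CPM (0.27), but this turned to -0.59 when the gate was applied at equal depth.

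All but 1 of the 17 S phase genes and all 16 G2 and M phase genes were higher in members, by medians of 0.50 and 0.44, and none was lower, beside 23.6% and 22.7% of all genes. The summed S phase genes held 1946 and 1953 CPM in members against 1248 and 1283 CPM, and the summed G2 and M phase genes 2048 and 2037 against 1436 and 1478 CPM. *PCNA*, the sliding clamp of DNA replication, held 262 and 271 against 122 and 127 CPM (1.04), and *CCNB1*, the mitotic cyclin B1, 131 and 133 against 74.4 and 76.4 CPM (0.75). In cells of matched depth, 15 of 17 and 11 of 16 of these genes were higher. Glycolysis genes were higher in 8 of 17 cases and lower in 1, beside the same shares (median 0.19). Hexokinase 1 (*HK1*) held 93.8 and 89.0 against 41.9 and 40.8 CPM (1.09), whereas the glucose transporter gene *SLC2A1* was the lower one at 191 and 179 against 408 and 430 CPM (-1.24).

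Among 12 genes of the apoptosis list, 3 were higher, near the 23.6% of all genes, and 5 lower, beside 22.7%. The proapoptotic gene *PMAIP1* held 28.5 and 29.0 CPM in members against 8.06 and 9.86 CPM (1.62). The cell survival gene *BCL2L1* was slightly lower at 27.9 and 24.5 against 29.5 and 30.6 CPM (-0.26). Genes of dissociation stress were lower in 8 of 11 cases, such as the AP-1 gene *JUN* at 102 and 72.6 against 228 and 182 CPM (-1.30), and 1, the chaperone gene *HSPA8*, was higher (0.50). The sum of this list was not lower, at 2459 and 2091 CPM in members against 2219 and 1918 CPM. In the retinoic acid list 3 of 10 genes were higher and 4 lower, beside the same shares over all genes. *CYP26A1*, the enzyme that degrades retinoic acid, was higher at 266 and 248 against 78.8 and 98.3 CPM (1.48), and the receptor gene *RARG* held 40.4 and 35.1 against 29.7 and 27.1 CPM (0.35).

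Members were next compared with cells that met the same limits for *POU5F1*, *CRABP1* and *ISG15* but held fewer than 4 UMIs of *DNMT3B*, 491 in library 1 and 698 in library 2. Their depth was lower, with medians of 39186 and 34730 UMIs, and their *POU5F1* level was 223 and 237 CPM. They expressed a median of 3 of the 10 pluripotency genes outside the gate at equal depth. Of 16552 genes tested, 2676 (16.2%) were higher and 2570 (15.5%) lower in members. With the gate at equal depth 798 were higher and 1157 lower, and 1773 of the 5246 calls (33.8%) remained in the same direction. DESeq2 called 1628 higher. This comparison and the others share the member sums, so they are not independent of each other. The groups here were split by the count of a gate gene, *DNMT3B*. The calls and their p-values therefore describe that split and are not evidence of 2 separate populations.

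Against these cells, 13 of 15 formative and primed genes were higher and none lower (median 1.33), beside 16.2% of all genes higher and 15.5% lower. Of 12 general pluripotency genes, 9 were higher and none lower (median 0.41). *ZIC2* stood at 133 and 124 CPM in members against 40.7 and 41.6 CPM (log2 fold change 1.57 ± 0.06, adjusted p = 3.32e-08, edgeR), and *SOX2* at 108 and 113 against 45.4 and 44.9 CPM (1.22). *SALL2*, a zinc finger factor, held 82.9 and 80.2 against 21.4 and 22.4 CPM (1.82). Of 9 naive genes none was higher and 4 were lower, beside the same shares over all genes, yet the median of the list was 0.05. *DPPA3* was among the lower genes, at 9.86 and 17.7 CPM in the cells low in *DNMT3B* (-1.21), opposite to its direction against all other cells. FGF genes were higher in 10 of 15 cases and lower in none, including *DUSP6* at 26.5 and 27.3 against 7.80 and 8.70 CPM (1.63). The FGF list went otherwise against the *CRABP1*-high cells described next, with 5 of 15 genes higher and 7 lower (median -0.32). In that comparison 21.1% of all genes were higher and 21.2% lower. When the gate was applied at equal depth, 9 of 14 formative and primed genes and 6 of 12 general pluripotency genes were higher and none was lower.

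Genes with the highest fold changes here were again *NTM*, at 22.5 and 33.0 CPM in the cells low in *DNMT3B* (2.70 ± 0.15), and *CDKL2*, at 15.8 and 14.5 CPM (2.35 ± 0.07). *ACSL4*, a long-chain acyl-CoA ligase, held 55.3 and 52.5 CPM in members against 8.99 and 15.4 CPM (2.05), and *GLI2*, a hedgehog pathway factor, 64.2 and 65.4 against 16.1 and 14.1 CPM (2.04). *DAB1*, an adaptor of reelin signalling, held 79.1 and 70.6 against 15.7 and 20.3 CPM (1.97), and *ERAS* 431 in both libraries against 115 and 114 CPM (1.84). Among the 8 lowest genes, *COBL*, an actin nucleator, held 23.6 and 20.7 against 93.0 and 95.3 CPM (-2.17). The protocadherin gene *PCDH17* held 18.7 and 19.8 against 87.4 and 77.6 CPM (-2.16), the cadherin gene *CDH7* 19.6 and 15.5 against 70.4 and 64.4 CPM (-2.03) and the contactin gene *CNTN5* 132 and 138 against 459 and 509 CPM (-1.91). *PCDH7*, the transporter gene *SLCO4C1*, the chemokine gene *CXCL12* and the homeobox gene *MEIS2* followed, with log2 fold changes between -1.90 and -1.81.

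Markers of other cells differed between these groups as well. None of 14 trophectoderm genes was higher and 12 were lower in members (median -0.72), with *GATA3* at 169 and 166 CPM in the cells low in *DNMT3B* (-1.33). These cells thus held more *GATA3* RNA than the mean of all other cells, at 136 and 132 CPM. *TFAP2C*, which was higher in members than in all other cells, was lower than in the *POU5F1* cells low in *DNMT3B* (-0.68), and in the germ cell list 2 of 8 genes were higher and 6 lower. BMP genes were lower in 10 of 17 cases, beside 15.5% of all genes, and higher in 3, near the 16.2% of all genes. Amnion genes gave 1 higher and 3 lower of 9, and *GABRP* was the higher one at 107 and 90.7 against 62.6 and 60.7 CPM (0.60). In members with fewer than 5 UMIs of *GATA3*, *GABRP* held 53.8 to 60.8 CPM, close to the compared cells, and in those with at least 5 it held 197 and 171 CPM. S phase genes were higher in 11 of 17 and G2 and M phase genes in 11 of 16, and none was lower.

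Cells with at least 15 UMIs of *CRABP1*, a retinoic acid binding protein, numbered 299 and 458 and also express *SOX2*. They too expressed a median of 3 of the 10 pluripotency genes outside the gate at equal depth. Their *CRABP1* level of 2764 and 2954 CPM against 31.1 and 38.2 CPM in members follows from the gate. Since a gate gene set this split as well, the calls below describe it and are not evidence of separate populations. Of 16066 genes tested, 3388 (21.1%) were higher and 3405 (21.2%) lower in members, while DESeq2 called 2221 lower. *SOX2* held 108 and 113 CPM in members and 64.2 and 72.2 CPM in the *CRABP1*-high cells, a log2 fold change of 0.72, and *ZIC2* differed by 0.25 (133 and 124 against 109 and 110 CPM). *ZIC5* did not pass the test, at 34.6 and 33.5 against 30.3 and 35.2 CPM. These factors were therefore shared by both populations, whereas *UTF1* was not: it held 210 and 222 CPM in members against 22.2 and 24.6 CPM (3.22 ± 0.08, adjusted p = 1.3e-09, edgeR), and the *CRABP1*-high cells lay below the 62.8 and 70.8 CPM of empty droplets.

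Of 12 general pluripotency genes 10 were higher and 1 lower (median 0.67), beside 21.1% and 21.2% of all genes, and of 15 formative and primed genes 9 were higher and 3 lower (median 0.28). *LIN28B* was the general pluripotency gene that was lower, at 80.5 and 77.4 against 178 and 164 CPM (-1.09). *ETV5* was lower too, at 50.2 and 53.3 against 82.2 and 109 CPM (-0.86). Among the 8 highest genes were *NTM* (3.35), *CDKL2* (2.81), *ERAS* (2.51), *CAV1* (2.35) and *REPS2* (2.12), which also led against all other cells. *PDZD4*, a PDZ domain protein, held 89.5 and 76.0 CPM in members against 18.4 and 18.2 CPM (2.19), and *G3BP2*, a stress granule protein, 427 and 446 against 98.4 and 104 CPM (2.13).

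Of 14 neural genes 12 were lower and 2, *SOX11* and *HESX1*, higher in members, and all 6 neural crest and surface ectoderm genes were lower (median -3.79). *LHX2*, a factor of forebrain and eye, stood at 6.72 and 5.57 CPM in members against 173 and 190 CPM (-4.88 ± 0.10, adjusted p = 5.47e-10, edgeR), 29.5 times as high in the *CRABP1*-high cells. *FGF8*, a ligand of brain and streak signalling centres, held 3.75 and 4.23 against 66.3 and 92.5 CPM (-4.28), *PAX7* 15.7 and 11.8 against 185 and 202 CPM (-3.82) and *PAX3* 6.77 and 4.63 against 73.8 and 84.1 CPM (-3.82). Members thus held little of these neural and crest transcripts. The neuropeptide gene *NPY* held 6.55 and 5.40 against 161 and 140 CPM (-4.65) and the cadherin gene *CDH6* 14.6 and 16.2 against 258 and 281 CPM (-4.09). *PCDH9* and *THSD7A* complete the 8 lowest, at -4.71 and -3.79. Mesenchymal transition genes were lower in 7 of 8 cases and epithelial adhesion genes higher in 8 of 12, with *CDH2* at 149 and 137 against 358 and 382 CPM (-1.35). Of 14 trophectoderm genes 3 were higher and 3 lower (median 0.10), near the 21.1% and 21.2% of all genes. Without members holding at least 5 UMIs of *GATA3*, *GATA6* or *COL3A1*, none was higher and 11 of 13 were lower (median -1.28). The *CRABP1*-high cells were not filtered in this way and *GATA3* is on the list. Part of this shift was thus set by the choice of members, and nothing is concluded from it.

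Members were not uniform, and *GATA3* is taken here to describe how they differed. In library 1, 128 members (37.5%) had no *GATA3* UMI, 121 (35.5%) had 1 to 4 and 92 (27.0%) had at least 5, and in library 2 these numbers were 294 (45.5%), 214 (33.1%) and 138 (21.4%). *SOX2* fell across these groups from 150 to 121 to 59.4 CPM in library 1 and from 145 to 119 to 64.0 CPM in library 2. *UTF1* fell from 267 to 226 to 144 CPM and from 278 to 219 to 152 CPM, and *ZIC2* from 178 to 150 to 77.3 CPM and from 153 to 139 to 67.4 CPM. The order was the same in both libraries for these 3 genes. *SALL4* varied less, at 222, 227 and 188 CPM and at 207, 226 and 186 CPM.

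Trophectoderm genes ran the other way across the *GATA3* groups. *TFAP2A* rose from 25.7 to 83.8 to 241 CPM in library 1 and from 26.5 to 96.7 to 245 CPM in library 2. *KRT8*, a keratin of simple epithelium, rose from 2084 to 2717 to 4506 CPM and from 1972 to 2749 to 3872 CPM. In the group with most *GATA3* these levels came close to those of all other cells, 300 and 283 CPM for *TFAP2A* and 5023 and 4700 CPM for *KRT8*. The groups also differed in depth and in doublet scores. Median UMIs were 42059, 45037 and 64163 in library 1 and 38277, 41506 and 58582 in library 2, and high doublet scores were held by 3.13%, 7.44% and 25.0% of the members and by 2.38%, 13.1% and 31.2%. The part of doublets and depth in this pattern was not tested. The groups were cut from the data and the gate genes vary with them (*DNMT3B* from 487 to 340 to 148 CPM in library 1), so no test was made.

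**Figure D5:**
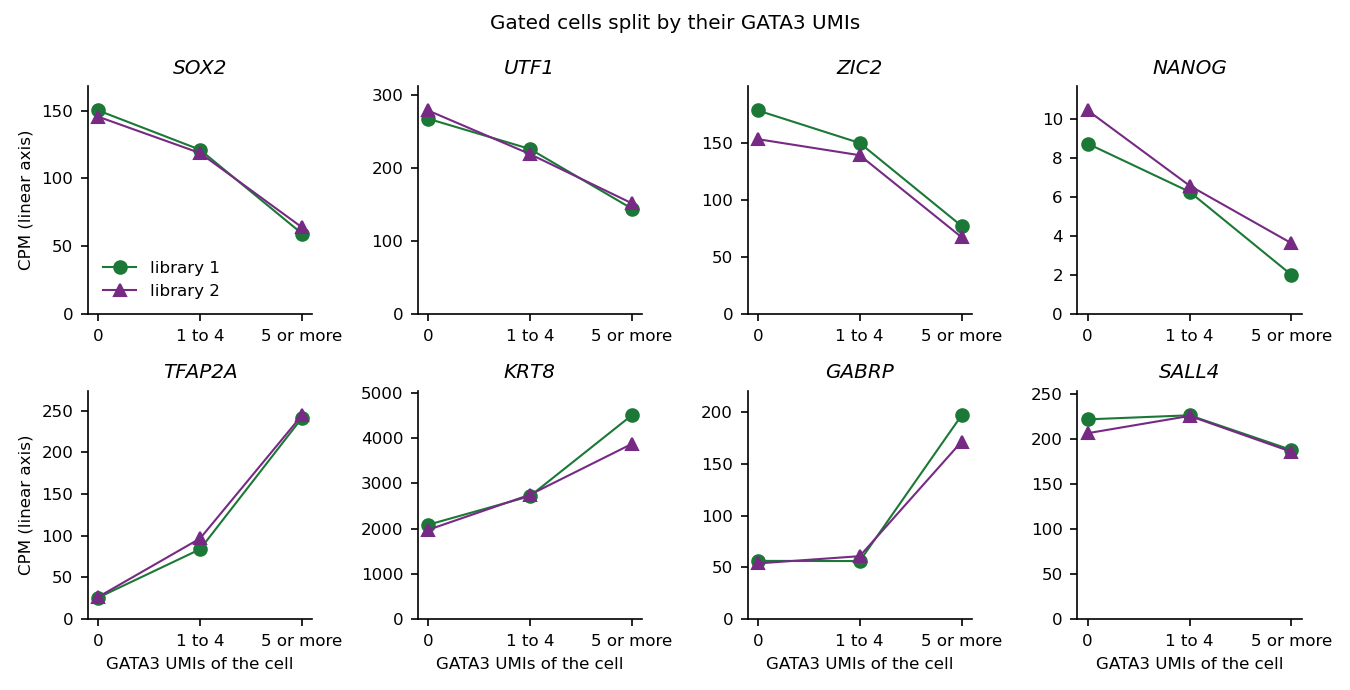
Level in CPM (y axis, from 0) of 8 genes in the gated cells with 0, 1 to 4 and 5 or more UMIs of *GATA3* (x axis), from UMIs summed over the cells of each group, with 1 line per library. *SOX2*, *UTF1*, *ZIC2* and *NANOG* step down (*SOX2* from 150 to 59.4 CPM in library 1), *TFAP2A* and *KRT8* step up (*TFAP2A* from 25.7 to 241 CPM), *GABRP* is raised in the last group (197 and 171 CPM) and *SALL4* is nearly level.

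Detection in the same cell was read at equal depth. At 9805 UMIs, *SOX2* without *GATA3* was seen in 46.6% and 44.4% of members, both in 14.7% and 17.0%, *GATA3* without *SOX2* in 20.8% and 16.1% and neither in 17.9% and 22.4%. Without thinning, at least 5 UMIs of *GATA6* were found in 16 and 11 members and at least 5 of *COL3A1* in 16 and 13. At this limit, members with markers of hypoblast or mesenchyme were few, and the 92 and 138 with *GATA3* were the largest such group. Of the latter, 25.0% and 31.2% had high doublet scores, and the part of doublets was not tested. With any UMI counted, *GATA6* was found in 22.6% and 19.2% of members, against 20.4% and 16.0% of other cells. For *COL3A1* these shares were 34.3% and 18.0% against 32.8% and 19.8%.

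When the members of each library were cut into 3 groups of equal size by their rate of *DNMT3B* UMIs, *UTF1* rose from 142 to 208 to 297 CPM in library 1 and from 149 to 212 to 323 CPM in library 2. *TDGF1* rose from 4.78 to 6.54 to 17.4 CPM and from 5.68 to 12.3 to 19.8 CPM. *SOX2* did not follow this order, at 70.6, 137 and 127 CPM and at 81.5, 138 and 128 CPM, where the lowest group stood apart and the upper 2 were close. *GATA3* fell from 142 to 53.9 to 19.6 CPM and from 115 to 42.6 to 19.2 CPM. High doublet scores fell along the same groups, from 14.9% to 10.5% to 6.19% of members and from 20.4% to 11.2% to 4.65%, and the lowest group was the deepest, with medians of 50422 and 46811 UMIs. Their part in these differences was not tested. These are descriptions of cells sorted by a gate gene.

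Members were 4.63% and 7.90% of cells and, being deeper, held 7.03% and 11.2% of all UMIs in cells. They contained 53.4% and 59.4% of the *TDGF1* UMIs of all cells, 48.2% and 62.2% of the *PRDM14* UMIs and 61.3% and 67.1% of the *NODAL* UMIs. For *SOX2* the shares were 26.5% and 33.2%, for *UTF1* 30.6% and 41.5% and for *ZIC2* 32.8% and 37.5%. Transcripts such as *NODAL* and *TDGF1* were thus mainly found in members, whereas most *SOX2* RNA lay in cells outside the gate.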

How the data were processed

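The authors counted UMIs of the 10x Genomics libraries with Cell Ranger 7.1.0 on susScr11, and the submitters' processing notes also name Seurat 4.3.0. The files the authors deposited hold a raw UMI count per gene for all barcodes, empty droplets included. Here cells and members were taken by the thresholds given in the text, with no filter on genes or mitochondrial share, and UMIs were summed per library and cell group. CPM are UMIs of a gene per 1000000 UMIs of the sum. The assay reads transcript ends, so levels were not compared between genes. Sums were tested with edgeR 4.0.16 in R 4.3.3 (filterByExpr, TMM, quasi-likelihood test, Benjamini-Hochberg adjustment over all genes tested, threshold 0.05), and the script was tested on simulated data. DESeq2 1.42.0 was an alternative.

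Genes were named by rule: with at least 50 CPM in both libraries of the higher group, the 12 called genes with the highest and the 8 with the lowest fold change against all other cells, 8 and 8 in each other comparison, and up to 4 genes per list with at least 20 CPM in members. Symbols starting with LOC and the gate genes were left out. Other names are list genes near 0, genes used to describe variation within the members, or genes chosen after their values were seen. The members and lists were chosen with earlier results of these data known. Scrublet (scanpy 1.11.5) gave doublet scores. Left to its own threshold it called 1 and 0 cells, so the top 0.8% per 1000 cells by score, 434 and 535 cells, were taken as doublets, and these cells were left out in an alternative only. Of gene names, 99.4% matched the RefSeq annotation of the same build, which gave the coordinates. Sums of 1 library share its cells and preparation, and their deviations from the group means correlated at 0.249, 0.120 and 0.142 over 20159 genes in the 3 comparisons. The bulk RNA-seq of pESCs was not used here, and results for some single genes of the lists and of the naming rule are not reported here.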

Additional observations from a re-analysis of the deposited data

How the results depend on the processing

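Counts of called genes stayed within 1.5 times the main count in 56 of 60 cases. The exceptions were the comparison with *POU5F1* cells low in *DNMT3B*, where 1628 genes were higher by DESeq2 and 798 higher and 1157 lower with the gate at equal depth, in place of 2676 and 2570, and the comparison with *CRABP1*-high cells, where DESeq2 called 2221 genes lower in place of 3405. The cause was not tested. The gate at equal depth passed 82 and 214 cells. The mean share of members of 6.26% moved to 3.79% with a stricter gate (at least 10 UMIs of *POU5F1* and 8 of *DNMT3B*) and to 1.87% with the gate at equal depth, and was 4.63% to 7.90% with either library left out. With 1 library left out there was 1 sum per group, so fold changes had no test.

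With the library as a block, which pairs the sums, 5760 genes were higher and 5548 lower against all other cells, 3633 and 3616 against *POU5F1* cells low in *DNMT3B* and 4086 and 4078 against *CRABP1*-high cells. Of the main calls, 9318 of 9335, 5246 of 5246 and 6793 of 6793 remained in the same direction.

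Of the genes picked by the naming rule and called against all other cells, 2 changed sign with the gate at equal depth, *ZEB2* to -0.59 and *PDPN* to -0.061. Genes that did not pass the main test were not counted here. The median of the epithelial adhesion and of the germ cell list against all other cells, 0.03 in both, turned negative in cells of matched depth, with a stricter gate, with the gate at equal depth and without members holding *GATA3*, *GATA6* or *COL3A1*. The gate on raw UMIs favours deep cells, and 2 libraries of 1 condition give the only spread. Transcripts in free RNA may also reach cells, which was not tested. Small differences, genes under a few CPM and shares of members are therefore the least certain values.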

Other observations

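Of the 12 named genes highest against all other cells, *ERAS*, *TENM1* and *REPS2* lie on chromosome X, as does *ACSL4* among those named against *POU5F1* cells low in *DNMT3B*. Over the chromosome, 174 of 742 tested genes (23.5%) were higher and 143 (19.3%) lower in members than in all other cells, with a median log2 fold change of -0.01, beside 23.6% and 22.7% of all genes. Chromosome X took 4.10% and 4.18% of the UMIs of members and 3.94% and 4.08% of those of other cells.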
